A study of Mus musculus with 6 samples.

Results

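The genes described here are the 39 protein-coding genes of the Hoxa, Hoxb, Hoxc and Hoxd clusters of the mouse, taken by symbol from 54146 gene rows and counted in tumors of 4T1 cells, an established mouse mammary carcinoma line. The cells were either wild type or Mki67-/-, that is, knocked out for the gene of Ki-67, a nuclear protein of proliferating cells that coats mitotic chromosomes. Both kinds of cell were injected orthotopically, into the fat pad of the mammary gland, and the tumors were taken after 3 weeks, per the labels. The hosts were nude mice, which have no thymus and so no mature T cells but keep macrophages, fibroblasts, vessels and skin. There were 3 libraries of each genotype. The age of the mice and the number of knockout clones are not given in the labels, which do not say either whether the 3 libraries of a group came from separate animals. The p-values therefore measure the spread between these libraries. Tumor and host are both mouse, so transcripts of tumor cells and of host cells cannot be told apart, and in such bulk RNA fewer cells of a type and less RNA per cell cannot be told apart either. The family was selected on the CPM values and fold changes of this same contrast, which were known when it was proposed, and its members were chosen by symbol. Their calls and fold changes are accordingly a description of these libraries, set beside the same counts over all genes.

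Hox genes encode transcription factors that bind DNA through a homeodomain and, in the embryo, give cells their position along the head-to-tail axis. The genes of a cluster lie in the order in which they are used along that axis, from the low-numbered anterior genes to the high-numbered posterior genes, and genes of the same number in different clusters are paralogs. Many Hox proteins bind DNA together with TALE homeodomain partners (the Pbx, Meis and Pknox proteins), and the clusters are textbook targets of silencing by Polycomb and of activation by trithorax complexes. Adult tissues keep part of the code, and in skin, fat and connective tissue Hox expression records the site in the body from which a cell came.

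Gene counts per library ran from 37065778 to 38399826 read pairs in wild type and from 22081970 to 30772729 in knockout. In knockout libraries 2 and 3, 54.6% and 52.7% of all pairs were unmapped, against 30.8% to 33.9% in the other 4. Of the uniquely mapped pairs, 14.2% and 18.9% lay outside exons in knockout libraries 1 and 3, against 9.24% to 11.1% in the other 4. Mki67 itself stood at 360 ± 34.9 CPM (a gene's pairs scaled to library size; SD, n = 3) in wild type and 118 ± 19.9 in the knockout, a log2 fold change of -1.61 (SE 0.14). Of the 8 marker lists for cell types, the summed levels were higher in every knockout library than in every wild-type library for fibroblast, adipocyte, skeletal muscle, keratinocyte, epithelial and pericyte genes, lower for macrophage genes, and overlapping for endothelial genes. No marker was at 0 in either group.

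Of the 39 Hox genes, 37 had at least 1 count, 30 had counts enough to be tested, and 28 had a mean of at least 0.5 CPM over the 6 libraries. In tumors of Mki67-/- cells, 15 Hox genes were higher, 2 were lower (Hoxa13 and Hoxd10) and 13 did not pass an adjusted p under 0.05 in edgeR's quasi-likelihood test, which was fitted across all genes. Over all 19900 genes tested, 36.0% were called, 17.6% as higher and 18.4% as lower. In 18 of the 30 tested Hox genes the groups did not overlap, 16 of them with all knockout libraries above all wild-type libraries and 2 with all of them below. Over all genes tested, 50.5% did not overlap, 24.5% with knockout above and 26.0% with knockout below. The median log2 fold change of the 30 Hox genes was 0.81, with a range from -2.32 to 2.03, and that of all genes tested was 0.05. The 9 Hox genes not tested did not pass the filter on low counts, so the 30 are not the whole family.

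The count of called Hox genes moved with the libraries used. Without wild-type library 2 or 3 it was 9 higher and 0 lower, without wild-type library 1 it was 10 and 1, and without knockout library 3 it was 10 and 0. Without knockout library 1 it was 17 and 1, and without knockout library 2 it was 18 and 2. In the fit over the 4 libraries with under 40% unmapped pairs, which leaves a lone knockout library assumed to vary like the wild type, 10 Hox genes were higher and 1 was lower. With the unmapped share as a covariate 9 were higher and 0 were lower, and with the fraction of pairs outside exons as covariate, an alternative added after seeing the data, 11 and 0. The filter on low counts was applied anew in each fit, so the counts with libraries left out can include Hox genes beyond the 30 tested. Of the 17 called genes, 9 passed in the same direction under each of the 20 alternatives, namely Hoxa2, Hoxa3, Hoxa4, Hoxa5, Hoxa9, Hoxc6, Hoxc8, Hoxc9 and Hoxc10.

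**Figure D1:**
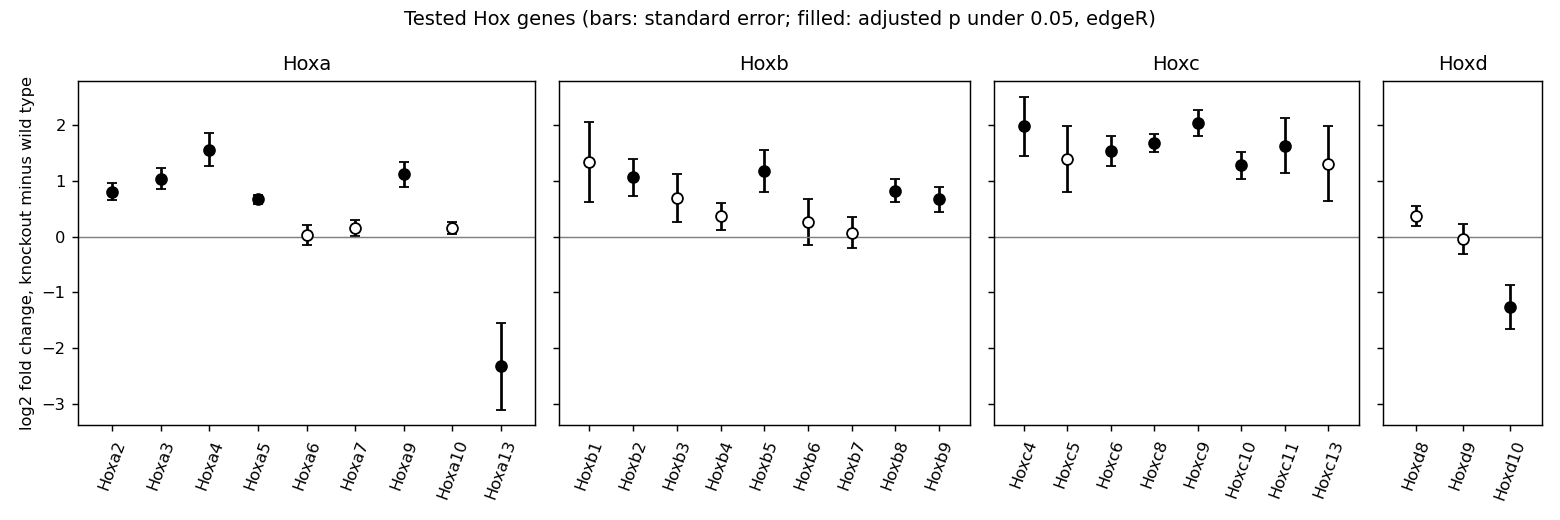
Log2 fold change (y axis, knockout minus wild type) of tested Hox genes, in order of gene number within each cluster (x axis). Bars are standard errors, filled points passed an adjusted p under 0.05 in edgeR and open points did not. All 8 tested Hoxc genes lie between 1.27 and 2.03, the Hoxa and Hoxb genes spread down to 0.03 and 0.07 apart from Hoxa13 at -2.32, and Hoxd10 lies at -1.26.

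Promoter sequence from RefSeq (build GRCm38.p6; 250 bases before to 50 bases after a transcript start) was at hand for 24 starts of 22 Hox genes, nearly all of them in the Hoxa and Hoxd clusters. Of the Hoxb genes it covered Hoxb1, Hoxb4 and Hoxb8, and of the Hoxc genes Hoxc4, so the Hox medians and shares below speak little for those clusters. The stretches below belong to the Hox gene with the most counts (Hoxa5), to the cluster with the largest ratio of summed levels (Hoxc4), and to a gene that fell (Hoxd10). Each is written 5′ to 3′ on the gene's strand, with every CpG in capitals, since CpG-rich DNA of this kind is the usual platform of Polycomb and trithorax complexes. The Hoxa5 stretch lies at chr6:52204538-52204837 on the minus strand, the Hoxc4 stretch at chr15:103034145-103034444 on the plus strand, at a start inside the annotated gene, and the Hoxd10 stretch at chr2:74691641-74691940 on the plus strand.
Hoxa5: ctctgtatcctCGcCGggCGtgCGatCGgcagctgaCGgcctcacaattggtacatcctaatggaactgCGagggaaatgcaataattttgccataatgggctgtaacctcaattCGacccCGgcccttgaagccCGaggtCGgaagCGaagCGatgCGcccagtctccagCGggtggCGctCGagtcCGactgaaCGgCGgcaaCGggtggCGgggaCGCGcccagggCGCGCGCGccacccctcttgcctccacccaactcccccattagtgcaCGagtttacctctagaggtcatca
Hoxc4: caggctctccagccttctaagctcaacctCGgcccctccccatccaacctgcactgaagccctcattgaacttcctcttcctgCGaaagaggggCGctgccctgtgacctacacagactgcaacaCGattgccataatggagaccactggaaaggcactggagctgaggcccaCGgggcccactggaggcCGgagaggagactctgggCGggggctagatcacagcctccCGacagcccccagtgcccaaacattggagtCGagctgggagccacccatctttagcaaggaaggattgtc
Hoxd10: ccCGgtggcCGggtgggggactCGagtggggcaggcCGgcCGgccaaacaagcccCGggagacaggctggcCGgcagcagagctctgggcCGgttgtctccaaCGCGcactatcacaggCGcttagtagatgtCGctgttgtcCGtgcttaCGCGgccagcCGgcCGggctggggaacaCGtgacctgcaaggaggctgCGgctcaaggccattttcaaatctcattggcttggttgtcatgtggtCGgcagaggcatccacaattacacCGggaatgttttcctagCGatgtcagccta
They hold 29, 9 and 22 CpG dinucleotides, and 87.1%, 54.2% and 76.9% of the 32851 promoters in the table hold fewer. The median was 14.5 CpG over the 24 Hox promoters, with a range from 4 to 45 (Hoxa13), and 7 over all promoters. On either strand, CCAAT, the box read by NF-Y, occurred in 15 of the 24 Hox promoters (62.5%) and in 37.4% of all promoters, each of the 3 above among them. AGGTCA, the half-site letters of nuclear receptors such as the retinoic acid receptors, occurred in 7 (29.2%), again including all 3, and in 16.3% of all. TATAAA occurred in 4 (16.7%) and in 13.6% of all, and TGATTNAT, the letters of a joint Pbx and Hox site, in 2 (8.33%, in Hoxa2 and Hoxd11) and in 3.22% of all. These matches describe letters in a 300-base window, and none of the 4 motifs is contained in another.

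The Hoxa cluster (chromosome 6, minus strand, GRCm38) gave most of the Hox read pairs, with 84.9% of all Hox CPM in wild type and 82.9% in knockout. Its anterior and middle genes Hoxa2, Hoxa3, Hoxa4 and Hoxa5 and the posterior Hoxa9 rose, Hoxa13 fell, and Hoxa6, Hoxa7 and Hoxa10 were among those that did not pass. Summed over its 11 genes, the level was 174 ± 6.96 and 263 ± 24.1 CPM in the wild-type and the knockout tumors (SD, n = 3), 1.51 times as high, with no overlap. The 10 tested genes had a median log2 fold change of 0.55. The summed fibroblast markers were 3635, 3656 and 4568 CPM in wild type and 6484, 11808 and 7948 CPM in knockout, with knockout library 2 highest, as it was for the Hoxa sum at 289.98 CPM. Their part in the Hoxa levels was not tested.

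Hoxa5, a regulator of lung and mammary development and a known activator of p53 expression, was the Hox gene with the most counts in each group. It stood at 86.2, 90.2 and 96.7 CPM in the 3 wild-type libraries and at 142, 151 and 140 CPM in the knockout libraries. Every knockout library lay above every wild-type library, and the libraries of a group were close to each other. The means were 91.0 ± 5.28 and 144 ± 5.56 CPM (SD, n = 3), a 1.58-fold rise with a log2 fold change of 0.66 (SE 0.09). Hoxa5 alone made up 44.5% of all Hox CPM in wild type and 45.5% in knockout.

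Of the anterior Hoxa genes, Hoxa2, the selector gene of the second pharyngeal arch, rose from 11.3, 11.9 and 11.7 CPM to 16.5, 23.5 and 20.95 CPM (log2 fold change 0.80, SE 0.14). Hoxa3, which patterns thymus, parathyroid and carotid body, rose from 16.9, 14.7 and 15.3 CPM to 23.2, 41.3 and 31.8 CPM (1.04, SE 0.19). Both had no overlap between groups, and the 3 knockout libraries were spread more widely than the 3 wild-type libraries.

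Among the central Hoxa genes, Hoxa4 had a low level that rose from 0.745, 0.715 and 0.935 CPM to 1.82, 3.12 and 2.11 CPM, a 2.93-fold rise (log2 fold change 1.55, SE 0.29). On the other side of Hoxa5, Hoxa6 stood at 8.03, 7.04 and 7.64 CPM and at 6.02, 9.28 and 7.92 CPM (0.03, SE 0.18). Hoxa7, whose product represses differentiation of keratinocytes, stood at 16.2, 15.1 and 16.6 CPM and at 15.5, 21.2 and 16.4 CPM (0.15, SE 0.14). In Hoxa6 the knockout libraries fell on both sides of the wild type. In Hoxa7 they lay within or above its range, and knockout library 2 was the highest in each gene. The sign of the Hoxa6 estimate turned without wild-type library 2 or 3 or knockout library 2, and that of Hoxa7 without knockout library 2.

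Of the posterior Hoxa genes, Hoxa9, a factor of blood stem cells and leukemia, rose from 2.98, 2.97 and 2.91 CPM to 5.40, 8.49 and 5.25 CPM, with knockout library 2 again the highest (log2 fold change 1.11, SE 0.22). Hoxa10, a gene of uterus and endometrium, stood at 25.5, 21.2 and 25.5 CPM and at 28.4, 27.1 and 24.9 CPM (0.15, SE 0.11), with overlapping groups. Hoxa13, which marks the distal limb and hindgut, had 11, 14 and 12 counts in the wild-type libraries and 1, 4 and 0 counts in the knockout libraries. The groups did not overlap, but the whole gene rests on 42 counts, and its values are given although its mean lies below 0.5 CPM. Its log2 fold change was -2.32 (SE 0.77). The Hoxa13 call was lost without knockout library 1 (adjusted p 0.12 in edgeR) or knockout library 3 (adjusted p 0.106), and the estimate was -3.96 without knockout library 2. It was also lost with DESeq2, with the unmapped share as covariate (-3.21) and with the fraction of pairs outside exons as covariate (-1.41), and Hoxa13 was not tested with the stricter filter, in either stranded column alone or when any 1 wild-type library was left out. Hoxa11 had 23 counts over all libraries and was not tested.

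**Figure D2:**
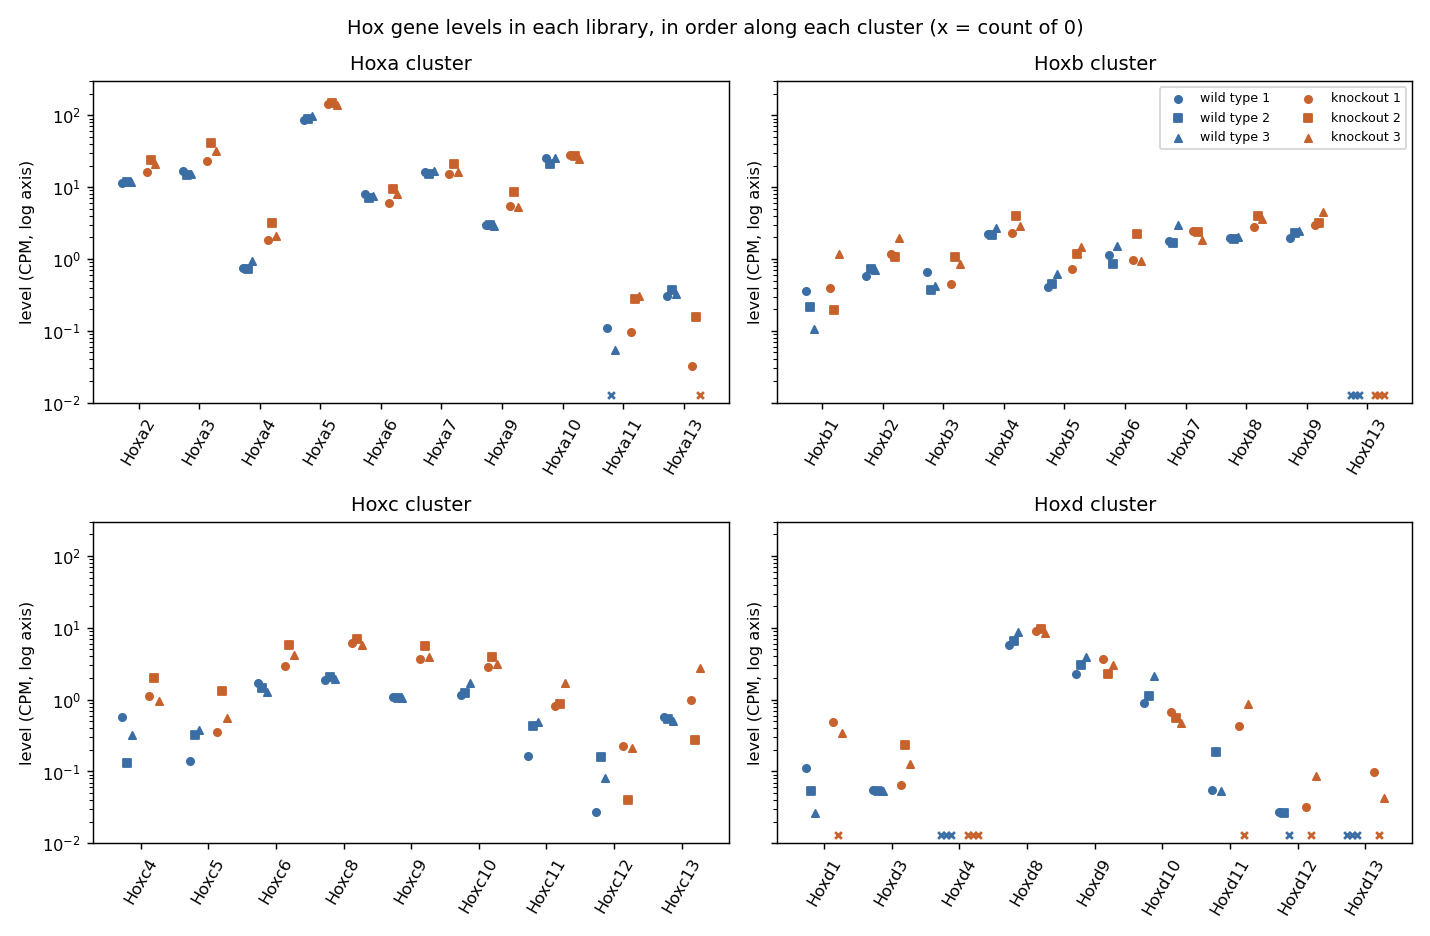
Level of Hox genes (y axis, CPM on a log axis) in each of the 6 libraries, in order of gene number within each cluster (x axis). Points are libraries, blue for wild type and orange for knockout, with a cross for a count of 0. Hoxa5 stands highest at 86.2 to 151 CPM, the Hoxc genes from Hoxc6 to Hoxc10 have their knockout points above their wild-type points, and most Hoxd genes lie below 1 CPM.

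The Hoxb cluster (chromosome 11, 96194316 to 96368256, plus strand) had low levels throughout, and 4 of its 9 tested genes rose: Hoxb2, Hoxb5, Hoxb8 and Hoxb9. Over all genes tested, 17.6% were called higher. All 9 Hoxb estimates were above 0, and their median log2 fold change was 0.69. Its summed level was 11.7 ± 1.56 and 17.6 ± 2.92 CPM in the wild-type and the knockout tumors (SD, n = 3), 1.501 times as high. Hoxb13, the prostate and tail-bud gene that lies apart from the others at the 5′ end, had 0 counts in all 6 libraries, which allows up to 0.0794 to 0.129 CPM in a library (3 counts, counting error only).

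Hoxb8, which labels progenitors of microglia and other blood lineages, stood at 1.96, 1.88 and 2.03 CPM in the wild type and at 2.80, 3.99 and 3.61 CPM in knockout (log2 fold change 0.82, SE 0.21). Hoxb9 stood at 1.99, 2.28 and 2.46 CPM and at 2.96, 3.16 and 4.56 CPM. Both had no overlap between groups, and Hoxb9, with a log2 fold change of 0.66 (SE 0.23) and an adjusted p of 0.0499 in edgeR, lay just inside the threshold. Hoxb2, a hindbrain gene, rose from 0.580, 0.715 and 0.695 CPM to 1.17, 1.07 and 1.94 CPM (1.06, SE 0.33). Hoxb5, expressed in the enteric nervous system, rose from 0.414, 0.450 and 0.615 CPM to 0.716, 1.19 and 1.46 CPM (1.17, SE 0.38). Each of the 4 calls was lost when any 1 wild-type library or knockout library 3 was left out, that of Hoxb5 also without knockout library 2. Over the libraries with under 40% unmapped pairs, all 4 calls were lost, and the Hoxb5 estimate was 0.47. All 4 were also lost with the unmapped covariate and with no filter on low counts, and each but that of Hoxb8 with the covariate of pairs outside exons. That of Hoxb5 was lost in either stranded column alone, and that of Hoxb9 in the second stranded column, with RLE size factors and with the robust fit.

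The other Hoxb genes did not pass. Hoxb4, a gene of blood stem cell expansion, stood at 2.24, 2.15 and 2.70 CPM and at 2.31, 3.91 and 2.93 CPM (log2 fold change 0.37, SE 0.24). Hoxb6 stood at 1.13, 0.847 and 1.497 CPM and at 0.976, 2.25 and 0.947 CPM (0.26, SE 0.40). Hoxb7 stood at 1.77, 1.67 and 2.97 CPM and at 2.44, 2.41 and 1.85 CPM (0.07, SE 0.28). In all 3 the groups overlapped. The estimate turned negative for Hoxb6 without knockout library 2 and for Hoxb7 without wild-type library 1 or 2 or either of knockout libraries 1 and 2. Hoxb3 stood at 0.663, 0.371 and 0.428 CPM and at 0.455, 1.07 and 0.860 CPM (0.69, SE 0.43), again with overlap, and much of its signal is left out of these counts.

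The unstranded counts leave out read pairs that also overlap a gene on the opposite strand. In the stranded columns of the same tables such pairs are kept, so their share can be computed. It was 79.5% in wild type and 79.7% in knockout for Hoxb2, and 75.0% and 78.7% for Hoxb3. The partner of both is Hoxb3os, an antisense transcript named here outside the rule for naming genes, which kept 48 of its 1146 pairs. Libraries of this kind, with 50.05% to 50.19% of stranded counts on the first strand, do not tell the strands apart. With the shared pairs put back, Hoxb2 had 113, 101 and 147 counts in wild type and 172, 199 and 160 in knockout (log2 fold change 1.12, SE 0.20). Hoxb3 had 74, 60 and 82 counts and 79, 123 and 84 counts (0.97, SE 0.27), and passed, as it did in each stranded column alone. Whether the added pairs came from the Hox genes or from Hoxb3os cannot be told apart.

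In the Hoxa cluster the shared fraction was smaller. It was 26.3% in wild type and 25.1% in knockout for Hoxa3, which lies across Hoxaas2 and other transcripts. It was 28.4% and 26.3% for Hoxa7, opposite Hoxaas3, and 18.3% and 21.4% for Hoxa4. Hoxb5, opposite Hoxb5os, shared 12.7% and 15.7%, and no tested Hoxc gene shared a pair with the other strand. Another annotated gene on the same strand covered 15.0% of the exonic bases of Hoxa2, 8.01% of those of Hoxa3 and 5.73% of those of Hoxd10. Pairs there are left out of the stranded columns too, so the counts of these genes are uncertain by them. Exact 50-base matches to annotated transcripts at other loci were few, and the effect of similar sequence on the counts was not measured. Of all 50-base windows of the 39 genes, at most 0.364% of a gene's windows recurred in a Hox gene at another locus (Hoxa6), and at most 1.27% in any other gene (Hoxc9).

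**Figure D3:**
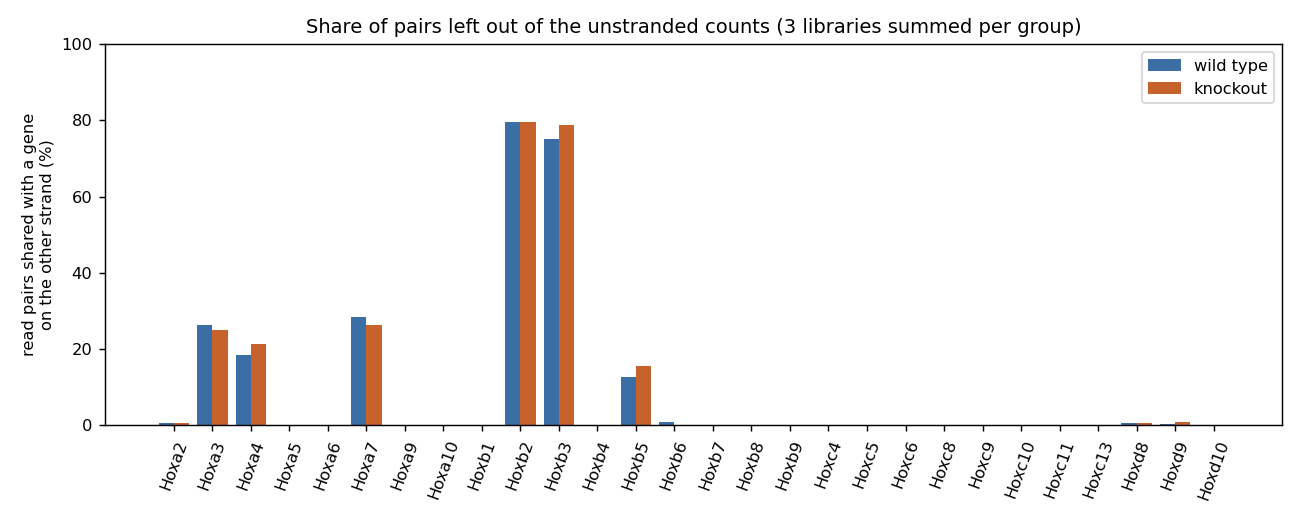
Share of read pairs that overlap a gene on the other strand (y axis, percent of the stranded sum) for Hox genes with at least 50 pairs in the stranded sum (x axis), with the 3 libraries of a group summed. Bars are blue for wild type and orange for knockout. Hoxb2 and Hoxb3 reach 75.0% to 79.7%, Hoxa3, Hoxa4 and Hoxa7 18.3% to 28.4%, and the Hoxc genes stand at 0.

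The Hoxc cluster (chromosome 15, 102921103 to 103036852, plus strand) had the largest ratio of the 4 clusters. Of its 9 genes 8 were tested, 6 of these were higher (Hoxc4, Hoxc6, Hoxc8, Hoxc9, Hoxc10 and Hoxc11), Hoxc5 and Hoxc13 did not pass, and all 8 estimates lay between 1.27 and 2.03 with a median of 1.58. Of all genes tested, 17.6% were called higher. The summed Hoxc level was 7.34, 7.36 and 7.72 CPM in the wild-type libraries and 19.1, 26.7 and 23.2 CPM in the knockout libraries. These means of 7.48 ± 0.214 and 22.98 ± 3.79 CPM (SD, n = 3) stand in a ratio of 3.07, against 1.51, 1.501 and 1.16 in the Hoxa, Hoxb and Hoxd clusters. The cluster's share of all Hox CPM went from 3.65% to 7.25%. Knockout library 2, the highest of the 6 in the Hoxc sum, was also the highest in summed fibroblast, adipocyte and keratinocyte markers. The adipocyte sum was 114, 73.4 and 83.1 CPM in wild type and 242, 607 and 308 CPM in knockout, and the keratinocyte sum 71.9, 126 and 87.7 CPM and 966, 1596 and 731 CPM. Their part in the Hoxc levels was not tested.

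Hoxc8 and Hoxc9 lie side by side in the middle of the cluster and are expressed in the trunk, Hoxc8 also in the developing mammary region. Hoxc8 stood at 1.91, 2.07 and 1.92 CPM in the wild type and at 6.12, 6.87 and 5.85 CPM in knockout, a 3.19-fold rise (log2 fold change 1.67, SE 0.17). Hoxc9, also a gene of white rather than brown fat, stood at 1.10, 1.06 and 1.07 CPM and at 3.71, 5.65 and 3.92 CPM, a 4.09-fold rise (2.03, SE 0.23). The lowest knockout library of either gene lay above its highest wild-type library. Over the 20 alternatives the estimate of Hoxc8 ran from 1.56 to 1.77 and that of Hoxc9 from 1.72 to 2.26.

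Hoxc6, which is expressed in mammary epithelium and other trunk tissues, rose from 1.68, 1.43 and 1.28 CPM to 2.93, 5.69 and 4.13 CPM (log2 fold change 1.53, SE 0.28). Its estimate was 0.93 over the libraries with under 40% unmapped pairs, where knockout library 1, the lowest of the 3, stands alone. Hoxc10, a gene of the lumbar region and of subcutaneous fat, rose from 1.16, 1.24 and 1.68 CPM to 2.86, 3.95 and 3.10 CPM (1.27, SE 0.24). Both passed under all alternatives, with no overlap between the groups. Hoxc10 and Hoxc5 overlap on the same strand, with 8.70% of the exonic bases of Hoxc10 and 5.37% of those of Hoxc5 inside the partner, so their counts are uncertain by the pairs left out there.

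Hoxc4 and Hoxc11 had fewer counts, 145 and 126 over all libraries. Hoxc4, a gene of neck and of lymphocytes, rose from 0.580, 0.132 and 0.321 CPM to 1.11, 2.01 and 0.947 CPM (log2 fold change 1.97, SE 0.53). Hoxc11, a posterior gene of limb and lower back, rose from 0.166, 0.424 and 0.481 CPM to 0.813, 0.869 and 1.68 CPM (1.63, SE 0.48). Neither gene's groups overlapped. The Hoxc4 call was lost without wild-type library 2 or 3, and the Hoxc11 call when any 1 wild-type library or knockout library 3 was left out. Both calls were also lost over the libraries with under 40% unmapped pairs and with the unmapped covariate, and that of Hoxc11 in the first stranded column and with the covariate of pairs outside exons. Hoxc5 stood at 0.138, 0.318 and 0.374 CPM and at 0.358, 1.30 and 0.559 CPM (1.39, SE 0.59), with overlap, and passed without knockout library 1. Hoxc12 had 23 counts over all libraries and was not tested.

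The Hoxd cluster (chromosome 2, 74668310 to 74765142, plus strand) had the fewest tested genes, 3 of 9, namely the neighbours Hoxd8, Hoxd9 and Hoxd10. Hoxd10 fell, and the others did not pass in edgeR (unadjusted p 0.0654 and 0.885) or in DESeq2 (adjusted p 0.139 and 0.932). The summed level was 11.7 ± 2.96 and 13.5 ± 0.972 CPM in the wild-type and the knockout tumors (SD, n = 3), and the groups overlapped. Hoxd10, a gene of limb, hindlimb motor neurons and mammary gland, stood at 0.883, 1.14 and 2.11 CPM in the wild type and at 0.683, 0.553 and 0.473 CPM in knockout. Its groups did not overlap, with the wild-type libraries spread more widely than the knockout libraries, and the fitted level was 2.39 times lower (log2 fold change -1.26, SE 0.40). The call was lost without wild-type library 2 or 3 or knockout library 3, in the second stranded column (-0.82), over the libraries with under 40% unmapped pairs and with either covariate.

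Hoxd8, per kilobase the highest Hox gene outside the Hoxa cluster, stood at 5.77, 6.49 and 8.74 CPM in the wild type and at 9.11, 9.60 and 8.48 CPM in knockout (log2 fold change 0.37, SE 0.18). Hoxd9 stood at 2.26, 2.99 and 3.96 CPM and at 3.68, 2.25 and 3.01 CPM (-0.04, SE 0.27). Both overlapped and did not pass, and the sign for Hoxd9 turned without wild-type library 3 or knockout library 2 and with library totals alone. Of the others, Hoxd4 had 0 counts in every library, Hoxd13 had 4 counts, Hoxd12 5 and Hoxd3 17. Hoxd3, Hoxd4 and a further annotated transcript share exons on 1 strand, 62.3% of the exonic bases of Hoxd3 and 52.3% of those of Hoxd4. Pairs there could not be counted for either, so the count of 0 for Hoxd4 covers only its other exonic bases.

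In several sparse genes the knockout libraries lay far apart from each other. Hoxb1, Hoxc13, Hoxd1 and Hoxd11 were picked for this after their values were seen, because knockout libraries 1 and 3 stood above knockout library 2. Hoxc13, a hair follicle and nail gene, stood at 0.580, 0.530 and 0.508 CPM in the wild type and at 0.976, 0.277 and 2.80 CPM in knockout (log2 fold change 1.30, SE 0.67). Hoxb1, a hindbrain gene, stood at 0.359, 0.212 and 0.107 CPM and at 0.390, 0.198 and 1.16 CPM (1.33, SE 0.71), and passed without knockout library 2. Hoxd1 had 4, 2 and 1 counts in wild type and 15, 0 and 8 in knockout, and Hoxd11 had 2, 7 and 2 counts and 13, 0 and 20. Among the other sparse genes, knockout library 2 was also the lowest of the 3 in Hoxc12 (7, 1 and 5 counts), Hoxd12 (1, 0 and 2) and Hoxd13 (3, 0 and 1), and the highest in Hoxa13 (1, 4 and 0) and Hoxd3 (2, 6 and 3). The share of uniquely mapped pairs outside exons was 14.2%, 9.91% and 18.9% in the 3 knockout libraries. With that share as a covariate the estimate was -0.67 for Hoxc13 and -0.26 for Hoxb1, and without knockout library 3 it was 0.23 and 0.39. Since this share has the order by which the 4 genes were picked, these values restate that choice, and its part in their levels was not tested.

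**Figure D4:**
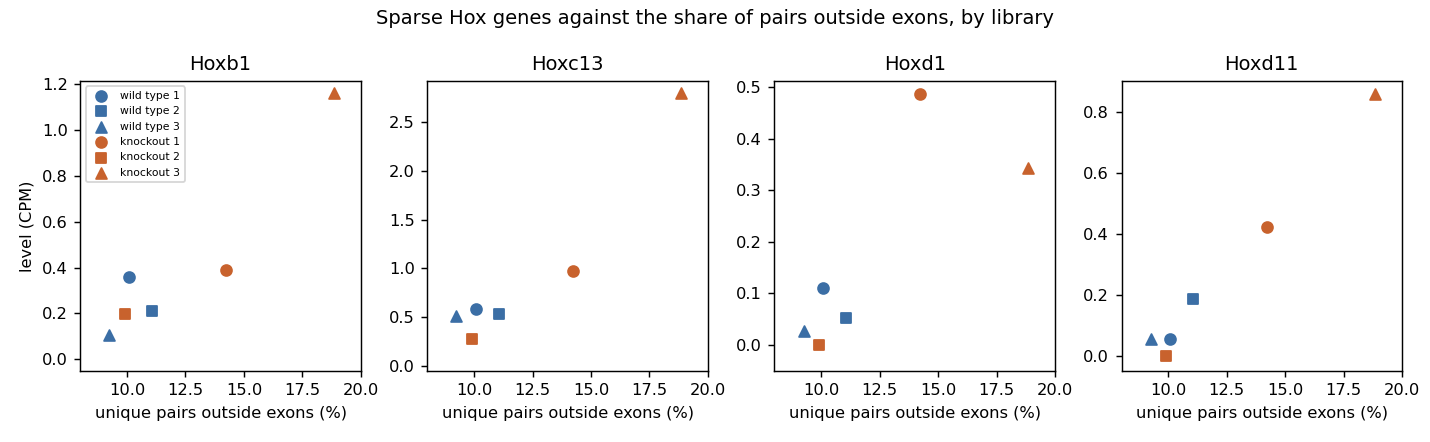
Level of Hoxb1, Hoxc13, Hoxd1 and Hoxd11 (y axes, CPM) against the share of uniquely mapped pairs outside exons (x axis, percent), 1 point per library, blue for wild type and orange for knockout. Knockout libraries 1 and 3, at 14.2% and 18.9%, hold the highest level of each gene, and knockout library 2, at 9.91%, lies among the wild-type libraries or below them. The genes were picked for this order.

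Seen by gene number, the calls were spread along the clusters. Of the 8 anterior genes (numbers 1 to 3) 6 were tested and 3 rose, of the 15 central genes (4 to 8) 14 were tested and 7 rose, and of the 16 posterior genes (9 to 13) 10 were tested, 5 rose and 2 fell. Over all genes tested, 17.6% were called higher and 18.4% lower. The medians of the log2 fold change of the anterior, central and posterior genes were 0.92, 0.74 and 0.89. Of the tested paralogs with number 9, Hoxa9, Hoxb9 and Hoxc9 rose and Hoxd9 did not pass. In paralog group 10 Hoxc10 rose, Hoxd10 fell and Hoxa10 did not pass. In group 8 Hoxb8 and Hoxc8 rose and Hoxd8 did not pass, and in group 2 both Hoxa2 and Hoxb2 rose. The 2 tested genes of group 7, Hoxa7 and Hoxb7, did not pass. Neighbouring genes are not independent, and no test was made of position.

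Per kilobase of exon, the level of Hoxa5 was 48.5 ± 2.81 and 76.8 ± 2.96 CPM in the wild-type and the knockout tumors (SD, n = 3), far above the next gene. In wild type Hoxa6 (8.67 ± 0.570 CPM per kb), Hoxa10 (7.37 ± 0.755) and Hoxa2 (6.55 ± 0.183) followed, and neighbours in that order lay no further apart than the sum of their SDs. In knockout Hoxa2 came second at 11.5 ± 2.01 CPM per kb, ahead of Hoxa6 at 8.85 ± 1.88 and Hoxa10 at 8.19 ± 0.542, again with neighbours no further apart than the sum of their SDs. Of the 28 genes ranked, Hoxc9 went from place 21 (0.443 CPM per kb) to place 10 (1.82) and Hoxc8 from place 16 (0.694) to place 9 (2.22). Hoxd10 went from place 13 (0.759 CPM per kb) to place 26 (0.314). Hoxd8 held place 7 in both groups, at 2.55 ± 0.564 and 3.30 ± 0.205 CPM per kb. The places rest on counts without shared pairs but on full exon length, so they may understate genes such as Hoxa7. Hoxa7 held place 5 in both groups and left out 28.4% of its pairs in wild type and 26.3% in knockout.

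The clusters also hold microRNA genes of the miR-196 and miR-10 families, known to act on Hox transcripts. The mature sequences below are from RefSeq, 5′ to 3′, with the seed (bases 2 to 8) in capitals, because members of a family share it and differ elsewhere.
miR-196a-5p: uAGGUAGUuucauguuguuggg
miR-196b-5p: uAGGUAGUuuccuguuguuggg
miR-10a-5p: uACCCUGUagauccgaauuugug
miR-10b-5p: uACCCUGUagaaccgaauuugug
ACTACCT, the match to the miR-196 seed, occurred in the longest annotated 3′ UTR of 9 of the 39 Hox genes (23.1%), against 6.80% of 21089 genes, with no correction for UTR length. Among them were Hoxa4, Hoxa5, Hoxa7, Hoxa9, Hoxb1, Hoxb6, Hoxb7 and Hoxc8. ACAGGGT, the match to the miR-10 seed, occurred in 4 (10.3%; among them Hoxa3, Hoxb3 and Hoxd1), against 12.9%. Hoxc8, a classical miR-196 target that rose here, holds 2 such sites, and Hoxa7, which did not pass, holds 4. The Hoxc8 sites lie at chr15:102992976-102992997 and chr15:102993733-102993754 on the plus strand and the first Hoxa7 site at chr6:52215400-52215421 on the minus strand, with the seed match in capitals.
Hoxc8 site 1: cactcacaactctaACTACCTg
Hoxc8 site 2: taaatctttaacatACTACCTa
Hoxa7 site 1: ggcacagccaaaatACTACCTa
The 5 hairpin genes of these families, Mir10a, Mir10b, Mir196a-1, Mir196a-2 and Mir196b, had 0 to 3 counts in each library. All exonic bases of Mir196b lie in Hoxa9 on the same strand, so pairs there could not be counted for Mir196b. Such libraries do not measure mature microRNAs. Of the genes with a miR-196 match, Hoxa4, Hoxa5, Hoxa9 and Hoxc8 rose, and Hoxa7, Hoxb1, Hoxb6 and Hoxb7 did not pass. Of the 30 tested Hox genes 15 rose, and 17.6% of all genes tested were called higher. The part of these microRNAs was not tested.

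Between the Hox genes lie 46 other annotated genes, mostly antisense and noncoding RNAs, of which 11 were tested, 5 were higher and 1 was lower in edgeR's test, where 17.6% and 18.4% of all genes were. All 5 that rose lie in the Hoxa cluster, which holds 8 of the 11 tested. Hoxaas2, opposite Hoxa3, rose from 3.56, 3.60 and 3.53 CPM to 8.59, 8.26 and 7.49 CPM (log2 fold change 1.19, SE 0.14), beside the rise of Hoxa3 itself. Hotairm1, a noncoding RNA known from myeloid cells, rose from 3.34, 3.52 and 2.89 CPM to 4.98, 5.06 and 4.73 CPM (0.60, SE 0.16). Gm15050 (0.83), Hoxaas3 (0.86) and 5730596B20Rik (0.81) rose as well. Gm15050 and 5730596B20Rik lie within the span of Hoxa3 and Hoxaas3 overlaps it, and these libraries do not tell the strands apart. Pairs from Hoxa3 outside its exons therefore cannot be told apart from theirs. Hoxaas2 left out 57.3% of its pairs in wild type and 52.2% in knockout as shared with the other strand. For Hoxaas3 these shares were 77.7% and 66.6%. Hoxd3os1, opposite Hoxd3, was lower, at 2.18, 2.99 and 2.57 CPM and then 1.63, 1.30 and 1.76 CPM (-0.72, SE 0.23; adjusted p 0.0401). The count of 6 called was 3 without wild-type library 1 or 2 or knockout library 3, and 2 without wild-type library 3. Hotair, the noncoding RNA of the Hoxc cluster, named outside the rule for naming genes, had 5 unstranded counts, and 16, 14 and 8 against 12, 4 and 25 with the shared pairs put back.

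Outside the clusters, the 3 nearest protein-coding genes on each side of each cluster gave 24 flanking genes. Of these 20 were tested, 1 rose and 6 fell. Over all genes 36.0% were called, 17.6% as higher and 18.4% as lower. At the Hoxc cluster, where 6 of 8 tested Hox genes rose, Smug1 (log2 fold change -0.02), Atp5g2 (-0.10), Atf7 (-0.17) and Hnrnpa1 (-0.16) did not pass, and Calcoco1 (-0.69, adjusted p 0.0039) and Cbx5, the gene of heterochromatin protein HP1 alpha (-0.29, adjusted p 0.0291), fell. Further out from the Hoxd cluster Nfe2l2 (-0.92) and Hnrnpa3 (-0.73) fell, and beside the Hoxa cluster Hibadh rose (0.34) and Snx10 fell (-0.57). Evx1, a homeobox gene at the end of the Hoxa cluster, had 0 counts. The 7 calls were 4 when any 1 wild-type library or knockout library 3 was left out, and 12 without knockout library 1.

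Among genes that act with or on Hox genes, 9 TALE partners were listed. Of these 8 were tested, 1 rose, 2 fell and 5 did not pass, against 36.0% called over all genes. Meis3 rose from 15.9 to 32.5 CPM (log2 fold change 1.03, adjusted p 0.0007 in edgeR), and Pbx2 (0.09) and Pknox1 (0.15) did not pass. Of 15 ParaHox and related homeobox genes 5 were tested, and 1 rose: En1, from 0.843 to 2.32 CPM (1.45, adjusted p 0.0063). Without knockout library 2 the called counts were 4 TALE genes and 2 ParaHox and related genes.

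Of 14 trithorax-side genes and H3K27 demethylases, all tested, 3 rose and 5 fell, with a median log2 fold change of -0.23, where 17.6% of all genes were called higher and 18.4% lower. Kmt2a, the MLL1 methyltransferase that maintains Hox expression in embryo and leukemia, fell from 217 to 105 CPM (-1.04, adjusted p 0.0025 in edgeR), Ash1l fell (-0.60) and Ash2l rose (0.45), while Kmt2d (-0.57, adjusted p 0.0857) did not pass. Without wild-type library 2 the 8 calls were 5. Of 16 genes of retinoic acid supply and response, 15 were tested, 4 rose, 1 fell and 10 did not pass. Over all genes 36.0% were called, 17.6% as higher and 18.4% as lower. Crabp1, a retinoic acid binding protein, rose from 51.2 to 119 CPM (1.21, adjusted p 0.0005), and the receptor genes Rarg, Rara and Rxra did not pass. The 5 calls were 9 without knockout library 1 and 3 without wild-type library 1. Of 7 CTCF and cohesin genes, which shape the loops around the clusters, 3 fell, where 18.4% of all genes were called lower. The 3 include Rad21 (-0.28) and Nipbl (-0.35), and Smc1a and Stag2 did not pass. The 3 calls were 1 when any 1 wild-type library was left out and 5 without knockout library 1.

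The levels of the marker lists moved with genotype in the same tumors, and the ratios of the keratinocyte and adipocyte lists were above those of all 4 Hox clusters. The summed keratinocyte markers were 11.5 times and the adipocyte markers 4.27 times as high in knockout, fibroblast markers 2.21 times, pericyte markers 2.18 times and epithelial markers 1.97 times, and macrophage markers 0.153 times. By the edgeR test 9 of 10 fibroblast genes rose and Pdgfra fell, all 6 adipocyte, all 7 keratinocyte, 5 of 6 epithelial, 5 of 6 skeletal muscle and 3 of 5 pericyte genes rose, all 6 macrophage genes fell, and 1 of 6 endothelial genes rose. Over all genes tested, 17.6% were called higher and 18.4% lower. The summed Hoxc genes, at 3.07 times, lay between the fibroblast and the adipocyte markers. The summed Hoxa and Hoxb genes lay below the fibroblast markers. Knockout library 2 was the highest of the 6 in fibroblast markers. Among the Hox genes called higher, it was highest in Hoxa2, Hoxa3, Hoxa4, Hoxa5, Hoxa9, Hoxb8, Hoxc4, Hoxc6, Hoxc8, Hoxc9 and Hoxc10. In the others called higher, Hoxb2, Hoxb5, Hoxb9 and Hoxc11, knockout library 3 was highest. The part of any cell type in the Hox levels was not tested.

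**Figure D5:**
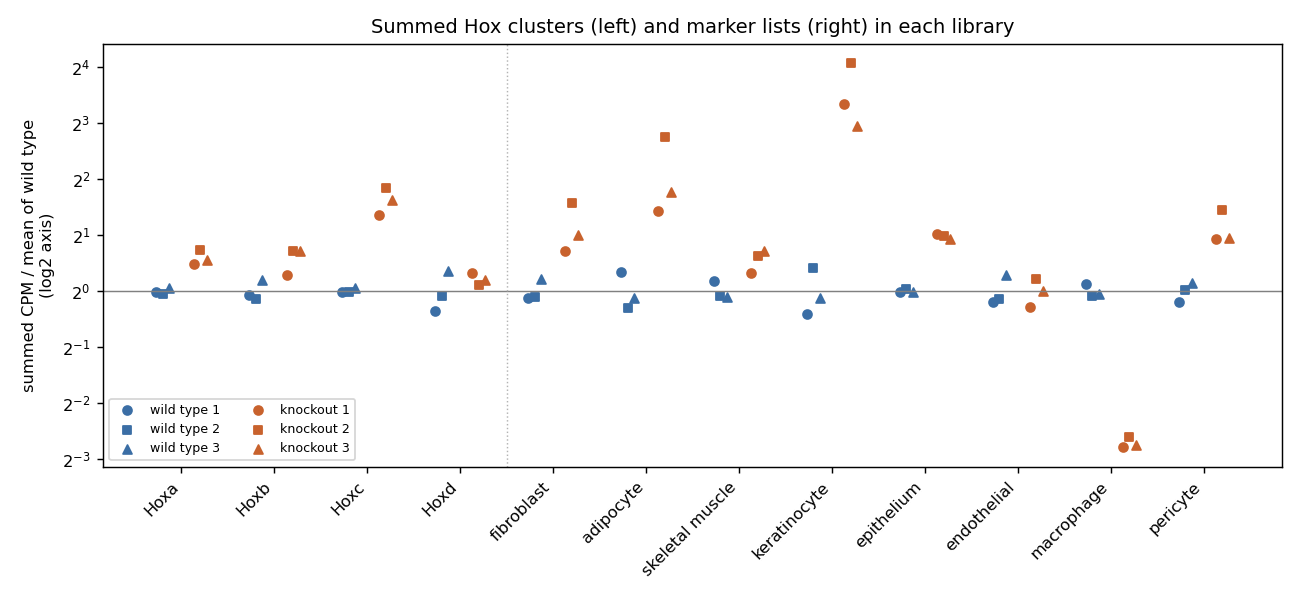
Summed CPM of each Hox cluster (left of the dotted line) and each marker list (right) in each library, divided by the wild-type mean (y axis, log2 axis), blue for wild type and orange for knockout. The Hoxc points of the knockout libraries stand together around 3.07 times the wild-type mean, the Hoxd points overlap the wild type, and the macrophage points lie at about 0.153.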

How the data were processed

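Tumor RNA was sequenced as 6 libraries of 50-base paired-end reads, per the labels. The authors deposited raw counts, in whole read pairs for each gene, once without regard to strand and once for each of the 2 strand settings. The submitters' processing notes name STAR 2.6.0c, FastQC, DESeq2 and build GRCm38. In this table layout, pairs that map to several places or overlap several genes are not counted. The 4 rows that name no gene stayed out of library sizes and tests. Their shares are 30.8% to 54.6% unmapped and 3.12% to 4.39% multimapping of all pairs, and 9.24% to 18.9% outside exons and 4.98% to 6.23% ambiguous of the uniquely mapped pairs. Of 54146 gene rows, 54079 were matched by identifier to GENCODE M21, of the same build.

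On the unstranded counts, knockout was compared with wild type by the quasi-likelihood test of edgeR 4.0.16 (R 4.3.3; filterByExpr, TMM), without covariates. Benjamini-Hochberg adjustment ran over all 19900 tested genes, and the threshold was 0.05. Fold changes are fitted, and SE is the log2 fold change divided by the root of F. CPM values are TMM-scaled, and 3 counts are worth 0.0794 to 0.129 CPM. Such floors cover counting error only.

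The members, the lists and the naming rule were chosen with earlier results of these data known. Values in every library are given for Hox genes with a mean of at least 0.5 CPM, and at most 4 genes, those of the highest mean CPM, are named in each other list. Genes of the clusters and flanks could be named from a mean of 0.5 CPM. Hoxa13, Hoxb1, Hoxd1, Hoxd11, Hoxb3os, Hotair, Evx1, Pdgfra and the microRNA hairpins fall outside this rule and were chosen after their values were seen.

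The alternatives were DESeq2 1.42.0, RLE size factors, library totals, no filter, a stricter filter (1 CPM in 3 libraries), each stranded column and their sum, a robust fit, a replicate block, the 4 libraries below 40% unmapped, the unmapped share as covariate, the mitochondrial and 20 most abundant genes left out, and each library left out. The share outside exons as covariate was added after seeing the data. On simulated data made from this comparison (19407 genes), the fit recovered 67 of 98 2-fold and 86 of 96 4-fold changes, and 7 of 160 calls were false. The simulation changed far fewer genes than were called here. It did not imitate the differing shares of unmapped pairs and pairs outside exons, so its rates need not hold for these libraries. Promoters and microRNAs are from RefSeq tables of GRCm38.p6. Sites in UTRs were read from GRCm38 with GENCODE M21. A Hox gene and a cofactor gene enter the counts and sums but are not reported here.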

Additional observations from a re-analysis of the deposited data

How the results depend on the processing

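Against 15 Hox genes higher and 2 lower, the number higher was 9 with the unmapped share as a covariate. The number lower was 1 with DESeq2, in the first stranded column and over libraries with under 40% unmapped pairs, and 0 in the second stranded column, with the stricter filter and with either covariate. Leaving out each library gave 9 to 18 higher and 0 to 2 lower, with the filter on low counts applied anew each time. Over all genes, 3506 were higher and 3652 lower, with 2333 higher under the unmapped covariate and 2238 lower under the covariate of the share outside exons, which was chosen after seeing the data. Leaving out each library gave 1821 to 4648 higher and 2257 to 4778 lower. Deviations from the group mean had correlations of 0.05, -0.21 and -0.24 between same-numbered libraries and of -0.10 to 0.25 between differently numbered ones. Deviations within a group sum to 0, so these values cannot decide whether the replicate numbers pair the libraries. With the number as a block, 12 Hox genes were higher and 0 lower (the calls of Hoxa13, Hoxb2, Hoxb5, Hoxb9 and Hoxd10 were lost), and 3082 and 3580 of all genes.

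Of 581 values for the 30 tested Hox genes under 20 alternatives, 31 reversed, in 9 genes that had not passed, and none in a called gene. The log2 fold change of Hoxd9 was 0.018 with library totals, 0.029 with the stricter filter, 0.047, 0.039 and 0.026 in the first stranded column, the second and their sum, 0.19 under 40% unmapped and 0.28 with the unmapped covariate. That of Hoxa6 was -0.048 with no filter, -0.40 under 40% unmapped and -0.30 with the unmapped covariate, and that of Hoxb7 was -0.013 with no filter. Under 40% unmapped, Hoxa7 was -0.11, Hoxb3 -0.16, Hoxb4 -0.096 and Hoxb6 -0.31, and with the unmapped covariate Hoxa7 was -0.030, Hoxb3 -0.047 and Hoxb6 -0.21. With a library left out, Hoxd9 ran from -0.25 to 0.13, Hoxa6 from -0.17 to 0.18, Hoxa7 from -0.047 to 0.23, Hoxb6 from -0.31 to 0.47 and Hoxb7 from -0.11 to 0.33. Under the covariate of pairs outside exons, Hoxb1 was -0.26 and Hoxc13 -0.67. The cause was not tested. At these depths and with pairs in shared exons left out, 9 Hox genes were not tested, and 2 of these had no count.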
